A study of Mus musculus with 4 samples.

Results

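The 10 genes described here are activity genes that the study's own list of immediate early genes (IEGs) does not contain: *Arc*, *Egr1*, *Egr3*, *Npas4*, *Bdnf*, *Vgf*, *Nptx2*, *Dusp1*, *Ier2* and *Scg2*. They were listed by name, with earlier results of these data known, out of 32285 genes counted in nuclei of the mouse posterior hindbrain. Their levels were followed over all neurons, over the neuronal clusters and over the annotated cell types of 39461 quality-controlled nuclei. The question was whether these genes differed between mice whose AgRP neurons were activated while their POMC neurons were inhibited and their controls.

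In AgRP-Gq;POMC-Gi mice, Cre expressed from the *Agrp* locus switches on the activating receptor hM3DGq, and Dre expressed under *Pomc* control switches on the inhibitory receptor hM4DGi. The receptors are thus limited to cells in which these drivers are or were active. The controls, labelled WT, are described in the methods as carrying both receptor alleles without either recombinase. All mice were on a C57BL/6 background, 12 to 20 weeks old and of both sexes, and all received the receptor ligand CNO at 3 mg per kg intraperitoneally and were killed 1 h later without food. Each group has 2 libraries of single nuclei, for which the methods give 2 mice per group and a pooling of samples within a condition, so the spread between libraries may not be that between animals. No p-value below measures more than that spread.

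Neuronal activity reaches the nucleus as calcium and kinase signals that act on factors already present, such as CREB and SRF, and genes that need no new protein are transcribed within minutes. Some of their products are themselves transcription factors, which then drive a later wave of effector genes that act at synapses or are secreted. Several early genes also respond to growth factors, stress hormones and injury in glia and vessels, so they are not markers of neurons alone.

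CREB binds the cAMP response element (CRE), whose full form is TGACGTCA and whose short form is TGACG or its reverse complement CGTCA. Promoters from RefSeq (GRCm38.p6) were matched here for 4 of the 10 genes, and they are shown because they carry such letters within 250 bases before a transcription start. Those of *Arc*, *Egr1*, *Egr3*, *Vgf*, *Nptx2* and *Ier2* were not analysed here. The starts are those of RefSeq and differ from the ends of the gene positions given below, which are from GENCODE M21. All 4 printed stretches lie inside those gene positions. Each sequence is printed 5′ to 3′ on the gene's own strand with the CRE or short form in capitals.
*Scg2*, chr1:79440076-79440105, minus strand, 68 bases before the start: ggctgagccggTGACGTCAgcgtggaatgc
*Dusp1*, chr17:26508597-26508626, minus strand, 143 bases before the start: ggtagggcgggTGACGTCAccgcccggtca
*Npas4*, chr19:4990129-4990157, minus strand, first short form 179 bases before the start: cgttcgaCGTCAcgggaTGACGtcggaag
*Bdnf*, chr2:109692389-109692417, plus strand, 35 bases before 1 of its 7 starts: tatgacagctcaCGTCAaggcagcgtgga
The full CRE, which reads the same on both strands, occurs in the same window of 1.55% of 32851 promoters, and a short form occurs in 17.8%. The match is a description of the letters and does not show that a factor binds there.

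Control replicates 1 and 2 held 2470 and 2736 neurons, and AgRP-Gq;POMC-Gi replicates 1 and 2 held 3696 and 3637, with median depths of 8252 to 9623.5 UMIs per neuron. Neurons were 25.4% and 27.2% of the nuclei of the controls against 38.0% and 36.5% of those from AgRP-Gq;POMC-Gi mice. Further, 168 of 39293 barcodes occurred in more than 1 library. The summed level of 4 neuronal markers (*Rbfox3*, *Snap25*, *Syt1* and *Elavl4*) was 2632 counts per 1000000 UMIs (CPM) in the nuclei annotated as neurons and 142 to 527 CPM in the other 9 types compared. In neurons, *Xist*, the RNA that coats the inactive X of female cells, stood at 507 and 319 CPM in the controls and at 541 CPM in AgRP-Gq;POMC-Gi replicate 1 but at 16.2 CPM in AgRP-Gq;POMC-Gi replicate 2. The 3 choroid plexus markers summed to 5.03 and 10.6 CPM in neurons of the replicates numbered 1 and to 1011 and 588 CPM in those numbered 2. Some of the results that rest on a single library are given with and without it.

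No member was called as changed between the groups over all neurons, and AgRP-Gq;POMC-Gi replicate 2 had the highest level of 9 of the 10. In edgeR's quasi-likelihood test of UMIs summed per library, 0 of 12115 genes tested were called (0%), with 667 genes (5.51%) at an unadjusted p under 0.05 and 12 called by DESeq2. A gene was tested if at least 5% of neurons had a UMI of it, which left 5 of the 10 members, *Npas4*, *Bdnf*, *Vgf*, *Dusp1* and *Scg2*. The other 5, *Arc*, *Egr1*, *Egr3*, *Nptx2* and *Ier2*, were found in 0.606% to 4.52% of neurons and are given as values without a test. Values are listed by replicate number, the 2 controls first and the 2 libraries of AgRP-Gq;POMC-Gi mice after them. In a fit without the 5% minimum, which called 1 of 27523 genes (0.00363%) and gave 1264 (4.59%) an unadjusted p under 0.05, *Egr1* and *Ier2* came closest among the members, with log2 fold changes of 0.35 and 0.60 and unadjusted p of 0.0767 and 0.07.

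The transcription factors of the early wave were *Npas4*, *Egr1* and *Egr3*. *Npas4* (chr19:4984355-4990316, minus strand), a factor induced by calcium influx that controls inhibitory synapses, had 7.86, 7.44, 6.83 and 10.1 CPM, and 6.93% of neurons had a UMI (95% Clopper-Pearson interval 6.49% to 7.39%). The control values lay between those of both AgRP-Gq;POMC-Gi libraries, and the log2 fold change was 0.20 ± 0.17 (SE, adjusted p = 0.826). *Egr1* (chr18:34859823-34864984, plus strand), a zinc finger factor induced in many cell types, had 5.36, 5.07, 5.37 and 7.37 CPM. Both AgRP-Gq;POMC-Gi values were above both controls, but AgRP-Gq;POMC-Gi replicate 1 was so by under 0.01 CPM. *Egr3* (chr14:70077203-70082614, plus strand), a relative of *Egr1*, had only 23, 18, 17 and 32 UMIs, that is 0.856, 0.656, 0.478 and 0.907 CPM, and the groups overlapped.

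*Arc* and *Nptx2* act at synapses. *Arc* (chr15:74669083-74672570, minus strand), whose product drives the uptake of AMPA receptors from the synapse, had 1.86, 1.42, 1.18 and 2.49 CPM in neurons. The lowest and the highest value were both AgRP-Gq;POMC-Gi libraries, 2.11-fold apart. *Nptx2* (chr5:144545902-144557478, plus strand), a secreted pentraxin that clusters AMPA receptors, had 0.968, 0.911, 0.646 and 1.13 CPM from 23 to 40 UMIs a library, again with both AgRP-Gq;POMC-Gi libraries outside the controls on opposite sides.

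*Dusp1* and *Ier2* are early genes of the signalling response. *Dusp1* (chr17:26505590-26562128, minus strand), a phosphatase that inactivates MAP kinases, had 8.45, 6.23, 6.38 and 8.87 CPM. Each group had 1 library above 8 and 1 below 7, and the log2 fold change was 0.11 ± 0.19 (SE, adjusted p = 0.912). In the annotation other genes overlap *Dusp1* on both strands, so some of its UMIs could belong to them. *Ier2* (chr8:84661331-84662852, minus strand), an early response gene, had 1.23, 1.24, 1.35 and 2.24 CPM from 33 to 79 UMIs. Both AgRP-Gq;POMC-Gi libraries were above both controls, chiefly replicate 2. *Egr1* and *Ier2* were thus the 2 of 10 members whose groups did not overlap, both higher in AgRP-Gq;POMC-Gi, beside 11.1% of the 18198 genes found in 0.5% of neurons or more and 10.4% of the 12115 tested.

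*Bdnf*, *Vgf* and *Scg2*, whose products are released from dense-core vesicles, were the members found in the largest shares of neurons. *Bdnf* (chr2:109674700-109727007, plus strand), a neurotrophin released with activity, had 13.8, 12.98, 11.7 and 15.9 CPM and a log2 fold change of 0.09 ± 0.14 (SE, adjusted p = 0.895). *Vgf* (chr5:137026392-137033351, plus strand), the precursor of several neuropeptides, had 24.3, 26.2, 20.7 and 25.9 CPM and a log2 fold change of -0.06 ± 0.11 (SE, adjusted p = 0.911). *Scg2* (chr1:79434669-79440120, minus strand), a granin of dense-core vesicles, had 131, 138, 115 and 160 CPM and a log2 fold change of 0.08 ± 0.12 (SE, adjusted p = 0.899). In all 3 the control libraries differed by less than the AgRP-Gq;POMC-Gi libraries did. A gene on the opposite strand overlaps *Bdnf*.

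**Figure D1:**
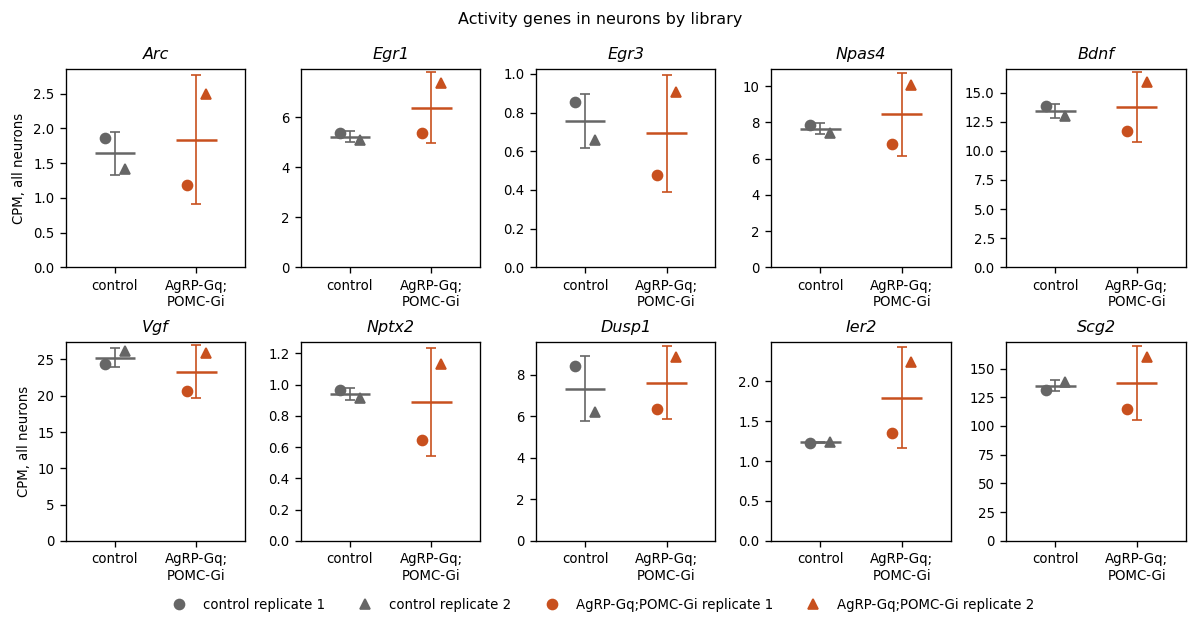
CPM of the 10 activity genes over all neurons (vertical axis, from 0), by group (horizontal axis), with 1 point per library, a bar for the mean and whiskers for the SD of 2 libraries. For all 10 genes AgRP-Gq;POMC-Gi replicate 2 (orange triangle) lies above replicate 1 (orange circle), and for 8 of them the groups overlap.

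The larger difference was within the AgRP-Gq;POMC-Gi group. Replicate 2 was above replicate 1 for 10 of 10 members, by 1.25-fold for *Vgf* to 2.11-fold for *Arc*, beside 67.7% of 18198 genes, and it was the highest of the 4 libraries for 9 of 10 members, beside 27.1% of those genes. The median log2 ratio of replicate 2 to replicate 1 was 0.52 over the members and 0.12 over the 12115 tested genes, whereas that of control replicate 1 to control replicate 2 was 0.08 and -0.01. *Xist*, as given above, set the same library apart, and its part in this difference was not tested. The choroid plexus markers were also higher in replicate 2 than in replicate 1, but were highest in control replicate 2. At equal depth, with neurons thinned to 2000 UMIs, *Scg2* was found in 22.1%, 24.0%, 21.3% and 26.3% of neurons and *Npas4* in 1.81%, 1.44%, 1.43% and 1.97%, so AgRP-Gq;POMC-Gi replicate 2 was the highest for both. By this share it was above replicate 1 for 10 of 10 members, but for *Egr3* only at 0.111% against 0.110%, nearly a tie. It was the highest library for only 6, with control replicate 1 highest for *Egr3*, *Nptx2* and *Dusp1* and control replicate 2 for *Vgf*. When each library was given the same make-up of clusters, *Scg2* stood at 148, 158, 129 and 160 CPM and *Npas4* at 7.74, 8.07, 7.04 and 9.52 CPM, with AgRP-Gq;POMC-Gi replicate 2 highest and replicate 1 lowest. With that make-up replicate 2 was above replicate 1 for 10 of 10 members and the highest library for 8, the exceptions being *Vgf* and *Egr3* (0.849, 0.798, 0.491 and 0.711 CPM). Without AgRP-Gq;POMC-Gi replicate 2 the log2 fold changes of *Npas4*, *Bdnf*, *Dusp1* and *Scg2* became -0.05, -0.08, -0.09 and -0.12.

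Across the 10 cell types of which each library held 20 nuclei or more, the members fell into genes highest in neurons and genes highest elsewhere. *Npas4*, *Bdnf*, *Vgf*, *Nptx2* and *Scg2* had their highest mean CPM in neurons, *Dusp1*, *Ier2* and *Egr3* in endothelial cells, *Egr1* in tanycyte-like cells and *Arc* in oligodendrocytes. Only for *Bdnf* did all neuronal libraries lie above every library of the next type. Without control replicate 1, and likewise without AgRP-Gq;POMC-Gi replicate 2, *Npas4* was highest in ependymal and *Scg2* in tanycyte-like cells. Without AgRP-Gq;POMC-Gi replicate 1, *Egr1* was highest in fibroblasts and *Vgf* in endothelial cells. By the share of nuclei thinned to 800 UMIs the highest type was the same for 7 of 10, the exceptions being *Egr3*, *Vgf* and *Nptx2*.

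*Npas4* and *Nptx2* had few UMIs outside neurons. *Npas4* had 14 UMIs in 16816 oligodendrocytes (0.0833% of nuclei, median depth 2460 UMIs) and 0 in 969 Tmem119.Immune nuclei, which allows a share of nuclei with a UMI of up to 0.31% at their median of 1871 UMIs, against 6.93% of neurons at a median of 8704 UMIs. Thinned to 800 UMIs, the share was 0.646% of neurons, 0.0178% of oligodendrocytes and 0 of the Tmem119.Immune nuclei. Ependymal cells were the next type for *Npas4*, with 3.90, 14.9, 8.24 and 4.35 CPM from 7 UMIs in all, a range that overlaps that of neurons. *Nptx2* had 8 UMIs in oligodendrocytes, 2 in astrocytes and 1 in OPC, and none in endothelial, ependymal, mural, tanycyte-like or Tmem119.Immune nuclei or in fibroblasts. These stood at 19.2%, 13.8% and 34.6% of its neuronal CPM in oligodendrocytes, astrocytes and OPC. The neuronal level was itself only 0.911 CPM, so a count of 0 in a type with few nuclei does not show a lower level.

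*Scg2* and *Vgf* were counted in every type at a sizeable share of their neuronal level. Oligodendrocytes held 44.2% of the neuronal CPM of *Scg2* and 46.2% of that of *Vgf*, against 15.7% for *Bdnf*, 3.8% for *Npas4* and 1.9% to 13.1% for the 4 neuronal markers. Thinned to 800 UMIs, *Scg2* was found in 11.3% of neurons and 5.14% of oligodendrocytes, and *Vgf* in 2.03% and 0.981%. Whether the counts in oligodendrocytes are RNA of their own or of other cells was not tested, so the neuronal shares of *Scg2* and *Vgf* are given beside them. Endothelial cells, with 325.8 CPM of the summed neuronal markers, reached 117.5 ± 13.4 CPM of *Scg2* (SD, n = 4 libraries) against 136 ± 18.9 in neurons, and their ranges overlapped.

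*Dusp1* and *Ier2* were highest in endothelial cells, which line the vessels. Endothelial cells had 174, 79.1, 64.1 and 75.8 CPM of *Dusp1* against 6.23 to 8.87 CPM in neurons, and 13.9% of their nuclei had a UMI although their median depth was only 1460 UMIs. *Ier2* had 114, 67.4, 81.5 and 81.6 CPM there against 1.23 to 2.24 CPM in neurons, so the endothelial and neuronal ranges were far apart. Tanycyte-like cells came next for both genes, with overlapping ranges. Neither gene was called in endothelial cells, where the log2 fold change was -0.82 ± 0.39 (SE, adjusted p = 0.806 over all gene-type pairs) for *Dusp1* and -0.15 ± 0.34 (SE, adjusted p = 0.969) for *Ier2*. The former was -0.16 without control replicate 1, the library with 174 CPM, and -1.29 without control replicate 2. *Egr3* had 7 UMIs in endothelial cells and 0 in 16816 oligodendrocytes, which allows a share of up to 0.0178%, so its order among types rests on few molecules.

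*Arc* was the member for which oligodendrocytes exceeded neurons in every library. Oligodendrocytes had 6.23, 7.71, 12.7 and 9.16 CPM against 1.86, 1.42, 1.18 and 2.49 CPM in neurons, without overlap. The 392 UMIs came from 382 nuclei, 372 of them with a single UMI and 10 with 2, and all 13 oligodendrocyte clusters held some, at 5.40 to 11.4 CPM. Astrocytes had 0.254 to 1.19 CPM, and in ependymal cells *Arc* was at 0 of 314 nuclei, which allows a share of up to 0.955%. With 2.27% of oligodendrocytes positive, *Arc* was under the 5% minimum for a test, and its values in AgRP-Gq;POMC-Gi (12.7 and 9.16 CPM) lay above both controls. The fit without that minimum gave a log2 fold change of 0.71 ± 0.20 (SE, adjusted p = 0.0942 over all gene-type pairs). It was 0.36 (adjusted p = 0.954) once AgRP-Gq;POMC-Gi replicate 1 was left out and 1.01 (adjusted p = 0.000481) once replicate 2 was, and 0.57 and 0.86 with control replicate 1 or 2 left out (adjusted p = 0.982 and 0.686).

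**Figure D2:**
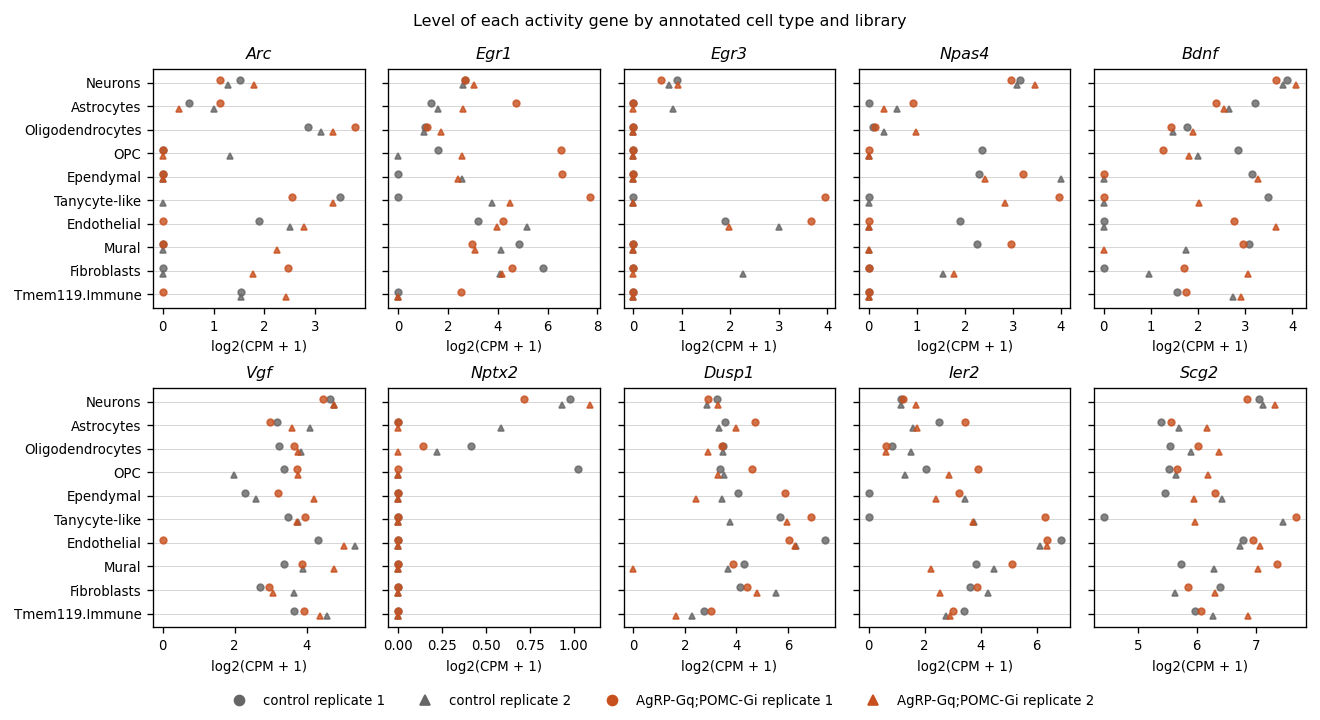
log2(CPM + 1) of each activity gene (horizontal axis) in the 10 cell types compared (vertical axis), 1 point per library. *Dusp1* and *Ier2* are farthest right in endothelial cells, *Arc* in oligodendrocytes exceeds neurons in all 4 libraries, and *Egr1* of AgRP-Gq;POMC-Gi replicate 1 (orange circle) stands apart in tanycyte-like, ependymal and OPC nuclei.

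Member pairs called with the replicate number as a block are named in the last paragraph. In the fit without that block, no member was called in any cell type at an adjusted p under 0.05 over all pairs. Of 79778 gene-type pairs 41 were called (0.0514%), and 0 of the 22 member-type pairs tested were among them, while DESeq2 called 130 pairs and 0 member pairs. Of the 41 pairs 23 were higher in AgRP-Gq;POMC-Gi, as were 23 of the 74 called without TMM factors. At an unadjusted p under 0.05, there were 7 member pairs, each higher in AgRP-Gq;POMC-Gi, beside 6.26% of all pairs in either direction and 3.03% in this one. They were *Egr1*, *Dusp1* and *Ier2* in tanycyte-like cells, *Egr1* in OPC, and *Scg2* in mural cells, oligodendrocytes and astrocytes. For 3 of the 7, *Egr1* in OPC and *Egr1* and *Ier2* in tanycyte-like cells, the 5% minimum was met in AgRP-Gq;POMC-Gi nuclei and not in control nuclei, so these pairs were tested through the group where they were high and their direction is no result. The other 4 met it in both groups.

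*Egr1* was high in several types of 1 library, AgRP-Gq;POMC-Gi replicate 1, and not in its neurons. In OPC, the precursors of oligodendrocytes, it had 2.07, 0, 90.9 and 4.98 CPM, with 45 of the 214 OPC nuclei of that library positive. The fitted log2 fold change was 5.14 ± 1.14 (SE, adjusted p = 0.115), and once AgRP-Gq;POMC-Gi replicate 1 was left out it was 1.89 (adjusted p = 0.856). With AgRP-Gq;POMC-Gi replicate 2 left out it was 6.15 and called (adjusted p = 2.07e-16), and without control replicate 1 no UMI was left in the controls (adjusted p = 0.327). Without control replicate 2 it was 4.46 and not called. In all, 2 of 371 control and 49 of 413 AgRP-Gq;POMC-Gi OPC nuclei held a UMI, so the fitted change is given as a value only. In tanycyte-like cells, which line the ventricle, *Egr1* had 0, 12.5, 209 and 21.5 CPM, with a log2 fold change of 4.33 ± 1.26 (SE, adjusted p = 0.331) that was 1.85 without the same library. It was called without AgRP-Gq;POMC-Gi replicate 2 (5.28, adjusted p = 0.000375) and without control replicate 2 (adjusted p = 0.011), which left no UMI in the controls, and not without control replicate 1 (3.28, adjusted p = 0.332). Here 1 of 52 control and 29 of 150 AgRP-Gq;POMC-Gi nuclei held a UMI, and the change is likewise a value only.

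Astrocytes and ependymal cells gave the same picture below the 5% minimum. *Egr1* had 1.52, 2.01, 25.4 and 5.07 CPM in astrocytes and 0, 4.98, 94.7 and 4.35 CPM in ependymal cells. Oligodendrocytes, with 1.13, 1.09, 1.26 and 2.26 CPM, did not share it, nor did neurons. In the same library *Dusp1* was the highest of the 4 in astrocytes (10.8, 9.02, 25.1 and 14.7 CPM), OPC, ependymal and tanycyte-like cells, and *Ier2* in astrocytes, OPC and tanycyte-like cells. *Fos*, named after its values were seen, stood at 4.11, 3.76, 37.6 and 7.61 CPM in astrocytes, 7.81, 0, 90.6 and 4.35 CPM in ependymal cells and 82.0, 37.5, 539 and 95.0 CPM in tanycyte-like cells. In these 3 types the same library stood at 4.95 to 11.6 times the next. In OPC *Fos* had 2.07, 0, 4.13 and 2.49 CPM, highest in that library too but by 1.66 times. *Junb* and *Btg2* were also highest in it in astrocytes, OPC, ependymal and tanycyte-like cells. That library was not the highest for *Jun* in ependymal cells (23.4, 49.8, 33 and 30.4 CPM). Nor was it in OPC for *Nr4a1* (26.9, 31.3, 24.8 and 17.4 CPM) or *Sik1* (2.07, 0, 0 and 0 CPM). In the rest of these types *Jun*, *Nr4a1* and *Sik1* were highest in it.

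**Figure D3:**
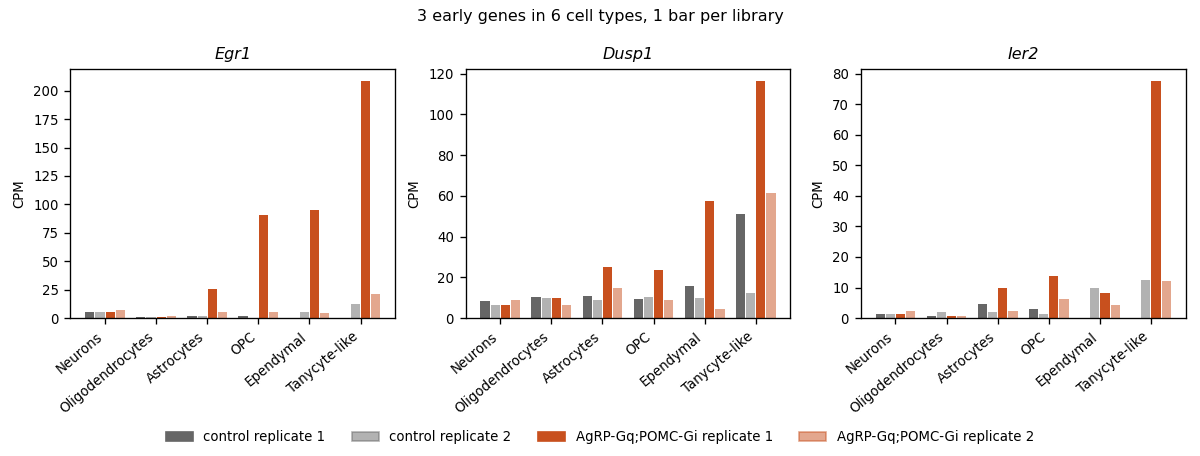
CPM (vertical axes, from 0) of *Egr1*, *Dusp1* and *Ier2* in 6 cell types, 1 bar per library. The tall *Egr1* bars of OPC (90.9 CPM), ependymal (94.7 CPM) and tanycyte-like cells (209 CPM) all belong to AgRP-Gq;POMC-Gi replicate 1, whose neurons and oligodendrocytes stay near the other libraries.

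Without the minimum on detection, which adds genes counted in few nuclei, 804 of 204670 pairs were called (0.393%), among them 5 member pairs. These were *Egr1* in astrocytes, OPC and tanycyte-like cells (log2 fold changes 3.14, 5.14 and 4.44), *Dusp1* in astrocytes (1.03) and *Scg2* in oligodendrocytes (0.52). With the minimum, *Egr1* in OPC and tanycyte-like cells and *Scg2* in oligodendrocytes were tested too and not called. Their log2 fold changes there were 5.14, 4.33 and 0.53, at unadjusted p of 0.000192, 0.00197 and 0.00929. Without it the unadjusted p were 1.41e-18, 2.05e-06 and 6.30e-05, so they are not read as a measure of the spread between libraries. Leaving out AgRP-Gq;POMC-Gi replicate 1 in the fit without the minimum was an alternative added after the data were seen. It ended the calls for *Egr1* in astrocytes, OPC and tanycyte-like cells and for *Dusp1* in astrocytes. The log2 fold changes fell to 1.48, 1.90, 1.99 and 0.51. Leaving out control replicate 1 also ended the calls for *Egr1* in tanycyte-like cells and *Dusp1* in astrocytes, with log2 fold changes of 3.41 and 1.19, and leaving out control replicate 2 that for *Dusp1*, at 0.91. The call for *Scg2* in oligodendrocytes held when 1 or the other AgRP-Gq;POMC-Gi library was left out (adjusted p = 5.93e-06 and 0.00877) and was lost without control replicate 1 or 2 (0.982 and 0.376), where the log2 fold change was 0.36 and 0.71.

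*Scg2* in mural cells, the contractile cells of the vessel wall, had 52.3, 77.0, 162 and 131 CPM from 24 to 35 UMIs per library, so the groups did not overlap. The log2 fold change was 1.20 ± 0.31 (SE), and its adjusted p was 0.111 over all pairs and 0.0333 over the genes of mural cells alone, where that adjustment called 43 of 5723 genes (0.751%, beside 0.125% over all 10 types). In oligodendrocytes *Scg2* had 45.6, 58.8, 64.1 and 81.7 CPM and a log2 fold change of 0.53 ± 0.15 (SE, adjusted p = 0.583). In astrocytes the values were 41.1, 51.1, 46.3 and 71.5 CPM, where the groups overlapped. The neuronal marker sum of the same nuclei was 219, 257, 210 and 277 CPM in mural cells and 138, 157, 114 and 160 CPM in oligodendrocytes, and its groups overlapped in both types. These markers stood at a smaller part of their neuronal level in oligodendrocytes than *Scg2* did. Of the 10 dense-core vesicle genes, a list without *Scg2*, 7 were tested in mural cells and 6 had a log2 fold change above 0, with a median of 0.85 beside 0.01 over all genes, 4 at an unadjusted p under 0.05 (6.85% of all genes) and 1 called within the type. In oligodendrocytes 7 of 9 were above 0, with a median of 0.08 and 1 at an unadjusted p under 0.05 (9.46% of all genes). Neurons made up a larger share of the AgRP-Gq;POMC-Gi libraries, and the part of this share and of neuronal RNA in the result was not tested.

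Whether the change differed between types was tested with the library as a block. For *Scg2* the change in oligodendrocytes exceeded that in neurons by 0.47 ± 0.12 (log2, SE, adjusted p = 0.15) and that in astrocytes did so by 0.31 ± 0.12 (adjusted p = 0.477), beside 0.713% and 0.215% of genes called and 12.2% and 9.63% at an unadjusted p under 0.05. *Scg2* was the only member that reached the 5% minimum in both types of either test. In a test without the minimum, added after the data were seen, the change of *Egr1* exceeded that in neurons by 2.70 ± 0.41 in astrocytes (adjusted p = 6.18e-08) and by 4.84 ± 0.75 in OPC (adjusted p = 1.33e-06), with 0.779% and 0.0798% of genes called. Its change in ependymal and tanycyte-like cells exceeded that in neurons by 4.15 ± 1.27 and 3.98 ± 1.32 but was not called (adjusted p = 0.604 and 0.879, with 0.0254% and 0.0399% of genes called). In the same fit *Scg2* in oligodendrocytes exceeded neurons by 0.45 ± 0.12 (adjusted p = 0.0116, with 1.34% of genes called). Both *Egr1* calls rest on AgRP-Gq;POMC-Gi replicate 1, whose astrocytes had 5.00 times and whose OPC 18.3 times the *Egr1* level of the next library. The *Egr1* differences are therefore given as values only and were not tested without that library.

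Within neurons, transmitter class separated some members far more than group did. Clusters were classed by the transporter genes *Slc17a6* and *Slc32a1*, which gave 69 glutamatergic clusters with 6201 nuclei and 46 GABAergic clusters with 4933 nuclei, at median depths of 8881 and 8765 UMIs. *Bdnf* was largely glutamatergic, with 23.2, 21.3, 21.1 and 27.6 CPM against 2.93, 3.45, 2.49 and 2.70 CPM in GABAergic clusters, a log2 ratio of 3.01. *Nptx2* leaned the same way, with 1.44 ± 0.24 against 0.404 ± 0.25 CPM (SD, n = 4 libraries). *Egr1* was higher in glutamatergic clusters of 4 of 4 libraries, at 6.77 ± 1.41 against 4.99 ± 0.81 CPM.

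*Vgf* and *Egr3* went the other way. *Vgf* had 31.7, 34.2, 27.7 and 32.9 CPM in GABAergic clusters and 18.7, 19.9, 16.2 and 21.6 CPM in glutamatergic ones, with no overlap. *Egr3* had 1.15 ± 0.39 against 0.512 ± 0.23 CPM and was higher in GABAergic clusters of 4 of 4 libraries. A single GABAergic cluster, 46, held 30% of all *Egr3* UMIs, with 11, 3, 4 and 9 per library. The comparison was not repeated without that cluster, so the difference is not shown for GABAergic clusters in general. *Npas4*, *Dusp1*, *Arc*, *Ier2* and *Scg2* had overlapping ranges in both classes. With a 10-fold in place of a 4-fold ratio to class a cluster, the *Egr1* ranges overlapped and the other separations held. The change between groups was not shown to differ between the classes for any of the 5 members tested, with differences, GABAergic minus glutamatergic, from -0.43 ± 0.25 (log2, SE) for *Bdnf* to -0.01 ± 0.11 for *Scg2* and adjusted p of 0.994 to 1. In that test edgeR called 0 of 12115 genes (0%) and 568 had an unadjusted p under 0.05 (4.69%).

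**Figure D4:**
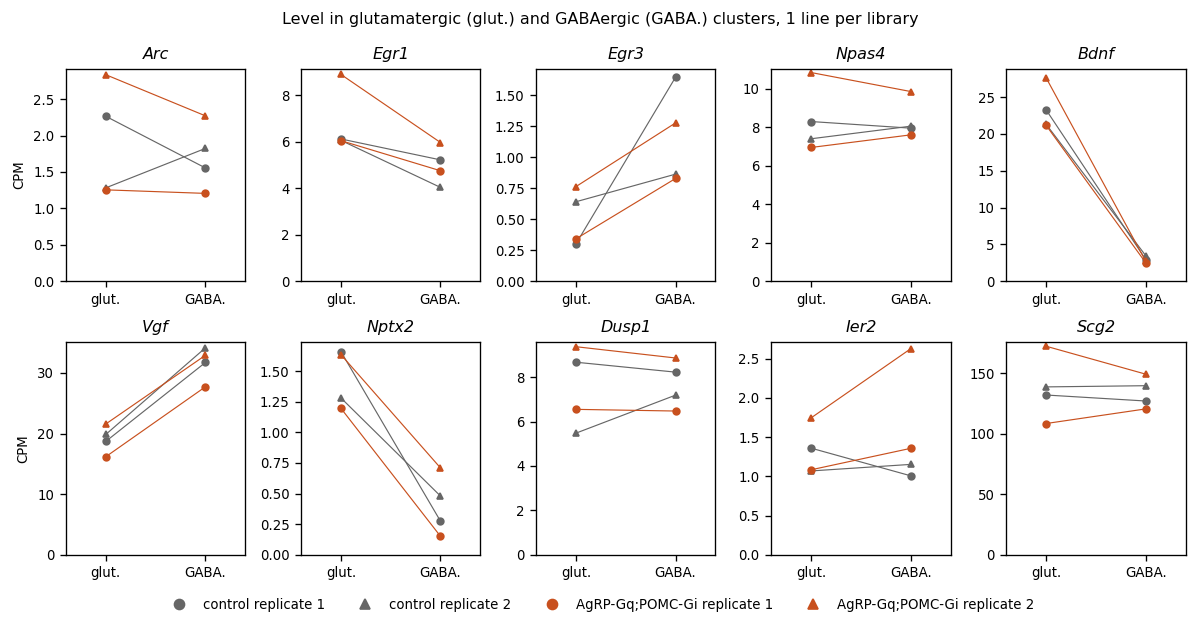
CPM (vertical axes, from 0) of each activity gene in glutamatergic (glut.) and GABAergic (GABA.) clusters, with 1 line per library. All 4 lines fall steeply for *Bdnf* and fall for *Nptx2* and *Egr1*, and all 4 rise for *Vgf* and *Egr3*.

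Levels were compared among 120 clusters, those of which each library held 5 nuclei or more. *Scg2* and *Vgf* had UMIs in all 120 clusters, at mean levels of 30.7 to 420 CPM and 2.64 to 125 CPM. *Egr3* had no UMI in 84 of the clusters, *Nptx2* in 74, *Arc* in 41 and *Ier2* in 40. As few as 5 clusters held 50% of the UMIs of *Egr3*, against 16 for *Bdnf*, 28 for *Npas4* and *Dusp1* and 34 for *Scg2*.

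GABAergic cluster 46, with 161 neurons and led by *Robo3*, *Rorb* and *Rai14*, held 30.0% of all *Egr3* UMIs. *Egr3* stood there at 24.3, 15.5, 9.13 and 10.6 CPM, all 4 libraries above the 0.724 CPM of neurons as a whole. *Egr1* had 44.2, 15.5, 22.8 and 25.9 CPM in the same cluster, and 23.0% of its nuclei had a UMI against 4.52% of all neurons. Neither differed between the groups at an unadjusted p under 0.05 (0.315 for *Egr1* and 0.0827 for *Egr3*). The next cluster for *Egr3* was cluster 162, which overlapped it.

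GABAergic cluster 162, with 48 neurons and led by *Gm14264*, *Ptk2b* and *Chrdl1*, ranked first for *Vgf*, *Egr1* and *Arc*. *Vgf* was at 159, 153, 87.5 and 101 CPM there from 51 UMIs, and 58.3% of nuclei had a UMI (interval 43.2% to 72.4%). *Egr1* was at 63.5, 27.9, 36.4 and 33.8 CPM from 17 UMIs, and *Arc* at 47.7, 13.9, 7.29 and 0 CPM from 5 UMIs. The first of these *Arc* values rests on 3 UMIs, and control replicate 1 held only 5 nuclei of the cluster. Clusters 163 and 125 came next for *Vgf* with overlapping ranges, and clusters 107 and 173 for *Arc*, the second of these on 1 UMI.

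Glutamatergic cluster 76, with 120 neurons, ranked first for *Bdnf* and second for *Egr1*. Its leading genes include *Dbh* and *Ddc*, which code for enzymes of catecholamine synthesis. *Bdnf* had 59.4, 91.8, 109 and 62.4 CPM, and 44.2% of the nuclei had a UMI (interval 35.1% to 53.5%). *Egr1* had 22.3, 18.4, 48.9 and 44.2 CPM from 3, 4, 18 and 17 UMIs, so the groups did not overlap. A UMI was found in 3 of 37 control and 18 of 83 AgRP-Gq;POMC-Gi nuclei. The log2 fold change was 1.27 with an unadjusted p of 0.0324 in edgeR's test, and it was not called after adjustment. Of all gene-cluster pairs, 15.2% separated in this direction and 2.38% were higher at an unadjusted p under 0.05. Cluster 76 was singled out through a count of early members that includes *Egr1*. *Bdnf* of the same nuclei overlapped between the groups. Clusters 156 and 149 followed for *Bdnf*, and cluster 126 for *Egr1*, with overlapping ranges.

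For the remaining members the ranking was not resolved beyond neighbouring clusters. *Scg2* was highest in cluster 142 (420 ± 124 CPM, SD, n = 4 libraries), cluster 63 (407 ± 88.4) and cluster 117 (375 ± 39.5), where 75.3% to 86.3% of nuclei had a UMI. *Npas4* was highest in clusters 145, 41 and 72, at means of 23.4 to 25.5 CPM, and cluster 41 was the most even, with 25.2, 24.5, 23.2 and 20.8 CPM. *Dusp1* was highest in clusters 128, 56 and 104, *Ier2* in clusters 104, 147 and 135 and *Nptx2* in clusters 153, 173 and 117, on 2 to 15 UMIs each.

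No member was called in any neuronal cluster at an adjusted p under 0.05. Of 1396489 gene-cluster pairs 389 were called (0.0279%), against 0 of 504 member pairs, and DESeq2 called 8 and 0. Adjusted within each cluster, 0.0387% of pairs and again 0 member pairs were called. At an unadjusted p under 0.05 there were 30 member pairs, 15 higher and 15 lower in AgRP-Gq;POMC-Gi, beside 4.51% of all pairs, 2.38% higher and 2.13% lower. In 8 of the 30 only 1 group met the 5% minimum, AgRP-Gq;POMC-Gi in 4 and the controls in 4, so the direction of these 8 is no result, and the other 22 were 11 higher and 11 lower. *Vgf* gave 10 of the 30, *Scg2* gave 7, and *Egr1* and *Bdnf* gave 5 each. For the 7 of *Scg2* (1 higher, 6 lower) the minimum was met in both groups. Only 1 group met it for *Vgf* in cluster 152, *Egr1* in clusters 41, 85 and 117 and *Bdnf* in cluster 148.

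The 10 pairs with the lowest unadjusted p, none of them past the adjusted threshold, included *Vgf* in 4 clusters and each time higher in AgRP-Gq;POMC-Gi. In cluster 46, *Vgf* had 22.1, 36.1, 68.5 and 61.1 CPM from 10, 7, 30 and 52 UMIs, with a log2 fold change of 1.29 ± 0.37 (SE, unadjusted p = 0.00255, adjusted p = 0.793). In cluster 55 it had 7.39, 13.7, 51.9 and 36.9 CPM and a log2 fold change of 2.13 ± 0.66 (SE, adjusted p = 0.809). In clusters 45 and 144 the log2 fold changes were 1.55 ± 0.55 and 1.80 ± 0.60 (SE, adjusted p = 0.995 and 1). In all 4 clusters the groups did not overlap. Of the 115 clusters tested for *Vgf*, 10 were separated in this way with higher and 22 with lower values in AgRP-Gq;POMC-Gi. All gene-cluster pairs leaned the same way, with 15.2% higher and 18.4% lower, so 22 of 115 was near the share over all pairs. Over the 115 clusters tested for *Vgf* the median log2 fold change was -0.15. In cluster 109, whose *Vgf* is not among these pairs, the values were 18.1, 7.93, 9.68 and 60.3 CPM.

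*Bdnf* and *Scg2* gave 5 further pairs. *Bdnf* in glutamatergic cluster 107 had 31.9, 26.6, 61.0 and 68.3 CPM, with a log2 fold change of 1.21 ± 0.41 (SE, adjusted p = 0.947). In cluster 38 *Bdnf* had 10.9, 14.2, 17.0 and 50.3 CPM, and the log2 fold change of 1.69 fell to 0.49 without AgRP-Gq;POMC-Gi replicate 2. *Scg2* was lower in AgRP-Gq;POMC-Gi in clusters 96, 30 and 147, with log2 fold changes of -1.12, -0.62 and -0.82 (adjusted p = 0.998, 1 and 1), and the first became -0.21 without AgRP-Gq;POMC-Gi replicate 1. The last pair was *Egr1* in cluster 85, with 0 UMIs in both AgRP-Gq;POMC-Gi libraries against 1 and 10 in the controls, which alone met the 5% minimum.

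**Figure D5:**
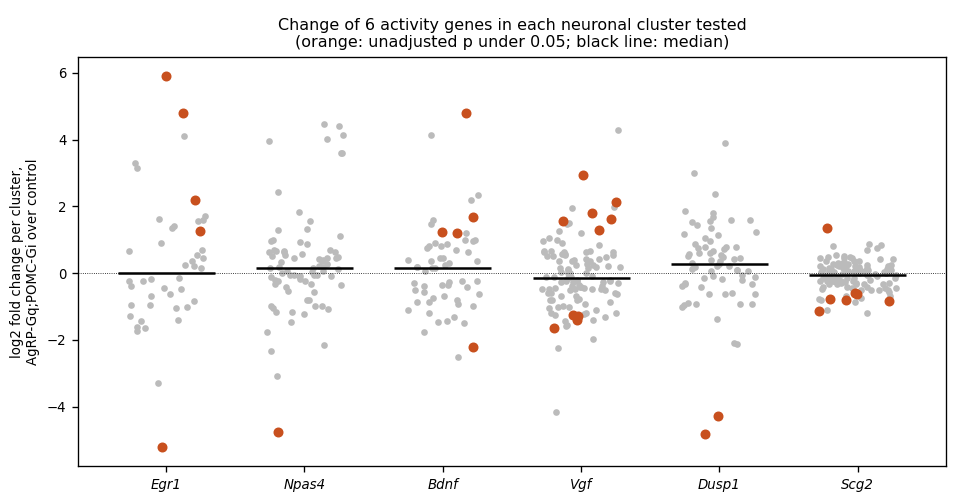
log2 fold change, AgRP-Gq;POMC-Gi over control (vertical axis), of 6 activity genes in each neuronal cluster tested (1 point per cluster), with the median as a black line and pairs at an unadjusted p under 0.05 in orange. The medians lie between -0.15 (*Vgf*) and 0.28 (*Dusp1*), and orange points lie on both sides of 0.

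Few neurons had UMIs of 2 or more early members, and the share expected from the detection of each gene alone was not computed. Of 12539 neurons, 10161 had no UMI of *Arc*, *Egr1*, *Egr3*, *Npas4*, *Dusp1* or *Ier2*, 2060 had UMIs of 1 of them, 272 of 2, 42 of 3 and 4 of 4. With neurons thinned to 2000 UMIs, the share with 2 or more was 0.247%, 0.222%, 0.137% and 0.167%, which is 5 or 6 neurons per library. The group means differed by -0.08 percentage points (exact permutation test over libraries, two-sided p = 0.333, the smallest that 2 against 2 libraries allow). Without thinning the share was 2.63%, 2.41%, 1.70% and 3.41%, so both AgRP-Gq;POMC-Gi libraries again enclosed the controls. Cluster 46 held 27 of the 318 neurons with 2 or more, 16.8% of its nuclei, followed by cluster 76 with 11 (9.17%), while in the smaller cluster 162 it was 7 neurons (14.6%).

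Patterns over clusters were compared for the 5 members detected in at least 5% of neurons, by Pearson's r of log2(CPM + 1) over the 120 clusters among 12114 other genes. This is a description, since clusters share libraries and shallow clusters give noisy values. *Bdnf* was most like *Slc17a6* (r = 0.74), *Nrn1* (0.72) and *Cacna2d1* (0.72). *Scg2* was most like *Podxl2* (0.62), *Zfr* (0.61) and *Ly6h* (0.61), and *Vgf* most like *Rgs20* (0.56), *Gm5820* (0.50) and *Fgf1* (0.49). *Npas4* and *Dusp1* had weaker neighbours, *Midn* (0.43), *Rpl22l1* (0.40) and *Tmem179b* (0.39) for the first and *BC065403* (0.41), *Midn* (0.40) and *Ccdc58* (0.38) for the second. Among themselves the members were little alike, from r = -0.26 for *Bdnf* with *Vgf* to 0.29 for *Npas4* with *Dusp1*.

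Related gene lists in neurons showed no called gene either. Of the study's 10 IEGs, 6 were tested and 5 had a log2 fold change above 0, with a median of 0.17 beside -0.0003 over all 12115 genes, and *1700016P03Rik* was the only listed gene past 0.5 either way, at 22.2, 18.6, 25.3 and 32.8 CPM and 0.56 ± 0.13 (SE, adjusted p = 0.81). Of 35 other activity-regulated genes, 12 were tested and 8 were above 0 (median 0.03). All 10 dense-core vesicle genes, which serve the same vesicles as *Scg2* and *Vgf*, were tested and 8 were above 0 (median 0.18). Of 8 partners of *Nptx2* and *Bdnf*, such as their receptors and processing enzymes, 7 were tested and 3 were above 0 (median -0.03). The 5 tested members had a median of 0.09. At an unadjusted p under 0.05 in edgeR's test there were 2 study IEGs, 2 other activity-regulated genes, 0 dense-core vesicle genes, 1 partner and 0 members. Over all genes that share was 5.51%.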

How the data were processed

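The authors made single-nucleus libraries with a 10x Genomics 3′ kit from DRAQ5-sorted nuclei of the posterior hindbrain, and counted UMIs with Cell Ranger 7.0.0 on GRCm38 (mm10); Seurat 4.3.0 is named in the submitters' processing notes. The deposited matrices hold raw UMI counts per gene and nucleus. The authors' deposited table of nuclei gave the quality control, the clusters and the cell types, and its IEG scores and categories, which hold their own comparison, were not used; doublets were treated as that table does.

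Counts were summed per library and cell type or cluster and scaled to the UMI total of those nuclei (CPM). Changes were tested with edgeR 4.0.16 (quasi-likelihood, TMM factors, genes found in 5% of nuclei or more) in R 4.3.3, with Benjamini-Hochberg adjustment at 0.05 over all genes in neurons, over all gene-type pairs of 10 types with at least 20 nuclei in every library, and over all gene-cluster pairs of 120 of 134 clusters with at least 5. The alternatives were no TMM factors, DESeq2 1.42.0, other gene filters, the replicate number as a block and leaving out each library. Intervals are exact Clopper-Pearson intervals at 95%, limits for 0 use 3 counts, and both cover counting error only. Glutamatergic and GABAergic clusters have a ratio of at least 4 of *Slc17a6* to *Slc32a1* or the reverse and at least 20 UMIs of either. Neurons were thinned to 2000 UMIs, which dropped 166 of them, and nuclei to 800 for cell types.

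Named were the 10 members and, for each, the 3 clusters with the highest mean CPM and the 3 most alike genes. Also named were the 10 member-cluster pairs with the lowest p and listed genes past the threshold or a log2 fold change of 0.5. Clusters 46, 76 and 162 and their leading genes were singled out after their values were seen. The same holds for *Fos*, *Junb*, *Jun*, *Btg2*, *Nr4a1* and *Sik1* in glia. The members and lists were chosen with earlier results of these data known. Gene positions are from GENCODE M21 (GRCm38). Tests were tried on simulated data; tables used Python 3.11.15, pandas 2.3.3 and scipy 1.17.1.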

Additional observations from a re-analysis of the deposited data

Results flagged for a closer look

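*Egr1* and *Scg2* are given a closer look because a test of the difference in change between cell types called them. Each call came from a fit without a minimum on detection that was added after the data were seen. Those of *Egr1* rest on a single library and are given as values only. For *Egr1* the log2 fold change in astrocytes exceeded that in neurons by 2.70, and the log2 fold change in OPC exceeded that in neurons by 4.84. The values behind both come from AgRP-Gq;POMC-Gi replicate 1, with 85 UMIs in 1042 astrocytes and 66 UMIs in 214 OPC, against 20 and 4 UMIs in AgRP-Gq;POMC-Gi replicate 2. In the fits of each type without the minimum, the *Egr1* log2 fold change was 3.14 in astrocytes, 5.14 in OPC and 0.35 in neurons. Without AgRP-Gq;POMC-Gi replicate 1 these were 1.48, 1.90 and 0.51. For *Scg2* the log2 fold change in oligodendrocytes exceeded that in neurons by 0.45 (adjusted p = 0.0116), whereas with the minimum the difference of 0.47 was not called (adjusted p = 0.15).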

How the results depend on the processing

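Counts over all genes depended strongly on the setting, whereas the members were called in few. Over neurons, 0 genes were called in the reported fit and without TMM factors, 12 with DESeq2, 1 without the filter, 1 with filterByExpr and 3 to 2017 when a library was left out (2017 without AgRP-Gq;POMC-Gi replicate 2). The 41 gene-type pairs became 74 without TMM factors, 130 with DESeq2, 804 without the filter, 70 with filterByExpr, 100 adjusted within each type and 169 to 931 with a library left out. The 389 gene-cluster pairs became 8 with DESeq2, 947 without the filter, 44 with filterByExpr, 219 with at least 10 nuclei per library and 610 to 1079 with a library left out. Member-type pairs rose from 0 to 5 without the filter, 1 adjusted within each type, and 0 to 2 with a library left out; members in neurons and in clusters stayed at 0 under every alternative run. Differences between cell types without the filter were called for 41 genes (GABAergic against glutamatergic), 216 (astrocytes against neurons) and 372 (oligodendrocytes against neurons), against 0, 17 and 45. The share of neurons with 2 or more early members differed by 0.035 percentage points without thinning and by 0.19 for 1 or more members, both opposite in sign to the reported -0.08, and by -0.10 to -0.07 with a library left out.

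Leaving out a library turned the sign of some fold changes, none of them called in the reported fit. In neurons the log2 ranges were -0.047 to 0.40 for *Npas4*, -0.084 to 0.25 for *Bdnf*, -0.17 to 0.041 for *Vgf*, -0.10 to 0.35 for *Dusp1* and -0.12 to 0.25 for *Scg2*. They were -0.49 to 0.26 for *Ier2* in endothelial cells, -1.47 to 2.17 for *Dusp1* and -0.20 to 0.72 for *Scg2* in ependymal cells, -0.90 to 0.50 and -0.30 to 0.48 for the same genes in fibroblasts, and -0.54 to 2.79 for *Scg2* in tanycyte-like cells.

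The labels number the replicates 1 and 2 in both groups without saying that a number is shared, and the deviations of same-numbered libraries correlated at r = 0.18 over 12115 genes. The choroid plexus markers in neurons followed the number, at 5.03 and 10.6 CPM in replicates 1 and 1011 and 588 CPM in replicates 2, controls first. Choroid plexus nuclei did too, with 2 and 6 in replicates 1 and 436 and 329 in replicates 2. With the replicate number as a block, 168 genes were called in neurons, 704 gene-type pairs and 598 gene-cluster pairs, among them 3 member-type pairs (*Egr1* in OPC, *Scg2* in mural cells and *Scg2* in oligodendrocytes). *Egr1* in OPC met the 5% minimum in AgRP-Gq;POMC-Gi nuclei only (11.9% against 0.539% of control nuclei), so its call and direction are no result. Depth limits *Arc*, *Egr3*, *Nptx2* and *Ier2*, with at most 88 UMIs per library in neurons.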
